A study of Arabidopsis thaliana with 9 samples.

Results

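The SBP-box genes of Arabidopsis thaliana, named SQUAMOSA PROMOTER BINDING PROTEIN-LIKE (SPL), encode plant transcription factors that bind DNA through a zinc-containing SBP domain. A set of 10 of them was examined here, namely SPL2, SPL3, SPL4, SPL5, SPL6, SPL9, SPL10, SPL11, SPL13A and SPL15. They were chosen by gene identifier, with the longest locus on the gene's own strand used where a gene had several. Each of the 10 had a locus among the 33871 of the deposited table, and all 10 were among the 19569 loci tested, those with a mean of at least 1 FPKM over the 9 libraries. FPKM scales fragments by locus length and by the library's total, so levels of different genes can be set side by side.

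RNA came from inflorescences of 5-week-old plants grown in soil at 22 °C under long days, and every plant was 35S:AP1-GR ap1,cal. In this line the constitutive 35S promoter drives APETALA1 (AP1), a MADS-domain regulator of floral fate, fused to the hormone-binding domain of the glucocorticoid receptor, and ap1 and cal are mutated. The shoot tips of ap1 cal plants proliferate as inflorescence-like meristems until the fusion protein is activated. The 3 groups were dexamethasone + cycloheximide for 2 h, cycloheximide alone for 2 h, and untreated, with 3 libraries each that the labels call biological replicates. Dexamethasone releases the fusion protein into the nucleus, and cycloheximide, the mock treatment, blocks translation elongation. No plants without the fusion were treated, so what dexamethasone does by itself and what the activated protein does cannot be told apart.

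Most of these genes are held down by the microRNA miR156 and its relative miR157, which are abundant in young plants and decline with age. As the microRNA declines, SPL proteins accumulate and drive the change to adult leaves and to flowering. SPL proteins in turn activate MIR172 genes, MADS-box genes and, for the SPL3 group, floral identity genes such as LFY, FUL and AP1. The family is conventionally divided into the small SPL3, SPL4 and SPL5, the pair SPL9 and SPL15, the group SPL2, SPL10 and SPL11, the SPL13 copies, and SPL6.

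The feature that the members share is shown by the mature microRNAs of RefSeq and the best-matching stretch of each gene's transcript in the reference genome of the TAIR10 sequence. The mature forms below are written 5′ to 3′ with the seed, bases 2 to 8, in capitals.
miR156a-5p: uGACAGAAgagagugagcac
miR156i: uGACAGAAgagagagagcag
miR156j: uGACAGAAgagagagagcac
miR157a-5p: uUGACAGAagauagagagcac
A total of 6 loci gave the first sequence (miR156a to miR156f), and the 20-base forms of the family shared the seed GACAGAA. miR157a, miR157b and miR157c were 1 base longer at the 5′ end, which shifts their seed to UGACAGA. The stretches of the transcripts follow, also 5′ to 3′, with the bases opposite the seed in capitals. They are shown because they are the sequences through which the microRNA acts.
SPL9 (chr2:17589066-17589085, plus strand): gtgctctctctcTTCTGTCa
SPL3 (chr2:14305878-14305897, plus strand): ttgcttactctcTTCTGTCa
SPL4 (chr1:19807090-19807109, plus strand): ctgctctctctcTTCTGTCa
SPL5 (chr3:5140598-5140617, minus strand): ccgctctctctcTTCTGTCa
The SPL9 stretch lay in the coding sequence. SPL2, SPL6, SPL10, SPL11, SPL13A and SPL15 carried the identical 20 bases, also in the coding sequence. They differed from the perfect complement of miR156a-5p by A14T alone, counted from the microRNA's 5′ end with the complement's base first, and matched miR156j with 0 mismatches. SPL3, SPL4 and SPL5 carried theirs in the 3′ UTR, with C15T and G20T in SPL3, A14T and G20C in SPL4, and A14T, T19C and G20C in SPL5. The SPL4 stretch matched miR156i with 0 mismatches. All 10 members therefore had a stretch with at most 3 mismatches. Of 27440 protein-coding genes, 12 did, and 11 of these were SBP-box genes.

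The annotated mature miR156i lay on the minus strand at the very coordinates of the SPL4 stretch, and mature miR156j at those of the SPL9 stretch. Neither microRNA gene had a locus of its own in the table. The remaining SBP-box genes SPL1, SPL7, SPL8, SPL12, SPL14 and AT1G76580 had 6 to 8 mismatches at their best stretch. SPL13B had the same stretch as SPL13A, and the coding sequences of these copies were identical over 1080 bases. A match of letters is a description, and no small RNA was measured here.

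In the inflorescences of all groups SPL4 was the most abundant member by a wide margin. It had 434.2, 310.0 and 334.9 FPKM in dexamethasone + cycloheximide replicates 1, 2 and 3, against 385.0, 302.5 and 309.5 FPKM with cycloheximide and 618.0, 501.2 and 432.4 FPKM in untreated inflorescences. It made up a mean of 59.0%, 59.1% and 63.0% of the summed FPKM of the 10 members in dexamethasone + cycloheximide, cycloheximide and untreated libraries. The member next in level was SPL11 with both compounds (111.9 ± 18.4 FPKM, SD, n = 3) and with cycloheximide (75.6 ± 16.9 FPKM), and SPL5 without treatment (80.7 ± 6.78 FPKM). SPL13A was the lowest in every group, with means of 1.78 FPKM with both compounds, 2.08 FPKM with cycloheximide and 0.656 FPKM without treatment. Its copy SPL13B, identical over all 1817 bases of its transcript, was listed at 0 in every library, so sequence alone cannot assign reads to either copy over that stretch, and neither value is that of 1 gene with certainty.

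With both compounds the order of mean levels was SPL4, SPL11, SPL5, SPL3, SPL6, SPL10, SPL9, SPL2, SPL15 and SPL13A, and only the neighbours SPL9 and SPL2 overlapped in their libraries. With cycloheximide the order of the means was the same, and SPL6 overlapped SPL10 as did SPL2 SPL15. Without treatment it was SPL4, SPL5, SPL3, SPL9, SPL11, SPL10, SPL15, SPL6, SPL2 and SPL13A. There SPL5 and SPL3 overlapped, as did SPL9 with SPL11, SPL11 with SPL10, and SPL6 with SPL2. Dividing each library by its median left every member at its rank in all 3 groups. Such a division cannot change the order within a library, so it is no strong check of the order.

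**Figure D1:**
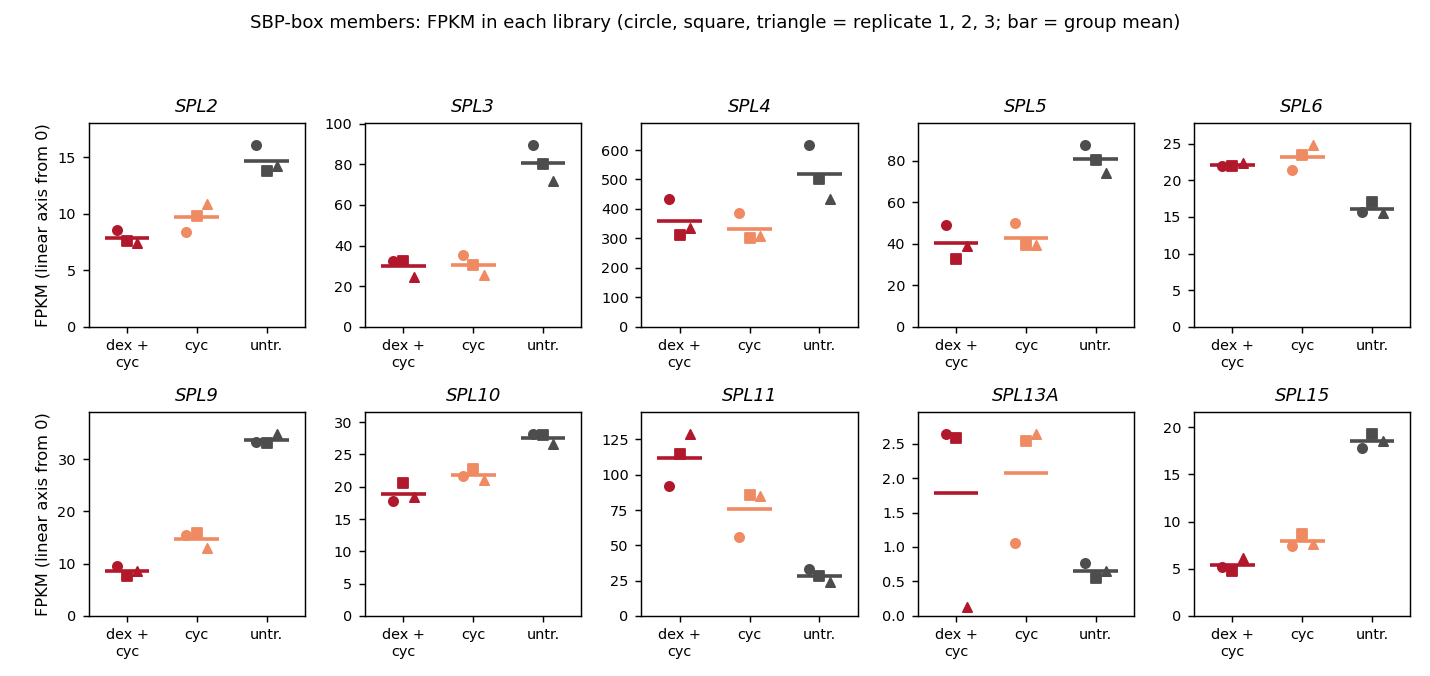
FPKM of the 10 members in each library on linear axes that start at 0, with dexamethasone + cycloheximide, cycloheximide and untreated inflorescences along each x axis. Points are libraries (circle, square and triangle for replicates 1, 2 and 3) and bars are group means; SPL9 and SPL15 have 3 separate groups of points, lowest with both compounds, SPL11 is highest with both compounds, and SPL13A has 1 library near 0.

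Setting dexamethasone + cycloheximide against cycloheximide alone asks what adding dexamethasone, which activates the fusion protein, changes in transcripts while translation is blocked. SPL9 and SPL15, a closely related pair that shortens the juvenile phase and lengthens the interval between leaves, fell. No other member passed the test in the main fit, which has no replicate block. Calls are those of limma on log2(FPKM + 1) with Benjamini-Hochberg adjustment over all loci tested, two-sided, at adjusted p under 0.05. Of the 10 members 2 fell and 0 rose, where 1.78% of all loci tested fell and 1.91% rose. At an unadjusted p under 0.05 in limma, 4 members were lower and 1 was higher, where 9.85% of all loci tested were lower and 13.3% higher. The median log2 fold change of the members was -0.15, and that of all loci was 0.01.

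SPL9 (AT2G42200, chromosome 2, 17587219 to 17589639) had 9.50, 7.54 and 8.66 FPKM in the dexamethasone + cycloheximide replicates, against 15.5, 15.9 and 13.0 FPKM with cycloheximide and 33.3, 33.1 and 34.9 FPKM untreated. The groups did not overlap, and the mean with both compounds was 0.579 times that with cycloheximide. Its log2 fold change was -0.72 ± 0.10 (SE, adjusted p = 0.0149). The call was lost without dexamethasone + cycloheximide replicate 3 (adjusted p = 0.0583), cycloheximide replicate 1 (0.0552) or cycloheximide replicate 2 (0.0533), and when only these 6 libraries were fitted (0.0729), with adjusted p between 0.0116 and 0.0729 over all alternatives. Tissue was sampled in bulk, so fewer cells of a type and less RNA per cell cannot be told apart here or below.

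SPL15 (AT3G57920, chromosome 3, 21444321 to 21446121) had 5.21, 4.72 and 6.09 FPKM in the dexamethasone + cycloheximide replicates, against 7.40, 8.67 and 7.65 FPKM with cycloheximide and 17.8, 19.3 and 18.5 FPKM untreated. These groups did not overlap either. The log2 fold change was -0.49 ± 0.10 (adjusted p = 0.0377), and the ratio of the means was 0.675. Leaving out any single library other than cycloheximide replicate 3 ended the call, with adjusted p of 0.0558 to 0.103 in those 8 fits. It was also lost without the filter on low values (adjusted p = 0.0727), in the 6 libraries alone (0.114) and in those 6 with the replicate number as a block (0.0757). In every one of these fits the value stayed below 0, between -0.58 and -0.42.

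The coding sequences of SPL9 and SPL15 are identical at 77.2% of 993 aligned bases. SPL9 was 1.82, 1.60 and 1.42 times as abundant as SPL15 in the dexamethasone + cycloheximide libraries, against 2.10, 1.83 and 1.70 times with cycloheximide. These ranges overlapped, and the difference of mean log2 ratios was -0.22 (exact permutation test, two-sided, p = 0.2, adjusted p = 0.24 over 6 comparisons of ratios). Between same-numbered libraries the log2 ratio was lower with both compounds at all 3 numbers, with differences of -0.20, -0.20 and -0.26. An exact test that swaps signs within these pairs gave p = 0.25, the smallest that 3 pairs allow, as it did for the other ratios below.

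SPL2, SPL10 and SPL11, which act in the shape and identity of leaves on the shoot and in inflorescences, did not pass the test. SPL11 (AT1G27360, chromosome 1, 9501077 to 9503869) had 92.4, 114.4 and 129.0 FPKM in the dexamethasone + cycloheximide replicates, against 56.0, 85.5 and 85.2 FPKM with cycloheximide. Each library with both compounds was above each with cycloheximide, which held for 14.4% of all loci tested, and its log2 fold change was 0.57 ± 0.20 (adjusted p = 0.139). Taking the replicate number as a block within these 6 libraries gave adjusted p = 0.0408 for the same difference. SPL10 (AT1G27370, chromosome 1, 9505201 to 9508481), its neighbour on the chromosome, had 17.8, 20.5 and 18.4 FPKM with both compounds, against 21.7, 22.8 and 21.0 FPKM with cycloheximide. All 3 libraries were below, as for SPL9 and SPL15 and for 11% of all loci, and the log2 fold change was -0.20 ± 0.07 (adjusted p = 0.141). SPL2 (AT5G43270, chromosome 5, 17360287 to 17363773) had 8.57, 7.55 and 7.40 FPKM with both compounds, against 8.40, 9.77 and 10.9 FPKM with cycloheximide. Its groups overlapped, with a log2 fold change of -0.27 ± 0.11 (adjusted p = 0.174).

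SPL11 and SPL10 have opposite orientation and are identical at 88.6% of 1162 aligned coding bases, and how reads matching both were counted is not given in the sources used here, so both values are uncertain to that extent. SPL11 was 5.18, 5.57 and 7.01 times as abundant as SPL10 in the dexamethasone + cycloheximide libraries, against 2.58, 3.75 and 4.05 times in the cycloheximide libraries and 1.19, 1.00 and 0.903 times in untreated ones. The 3 groups of ratios did not overlap. The mean log2 ratio was higher by 0.79 with both compounds than with cycloheximide, and by 1.73 with cycloheximide than without treatment. Each comparison had p = 0.1 in an exact two-sided permutation test, the smallest that 3 libraries against 3 allow (adjusted p = 0.15).

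**Figure D2:**
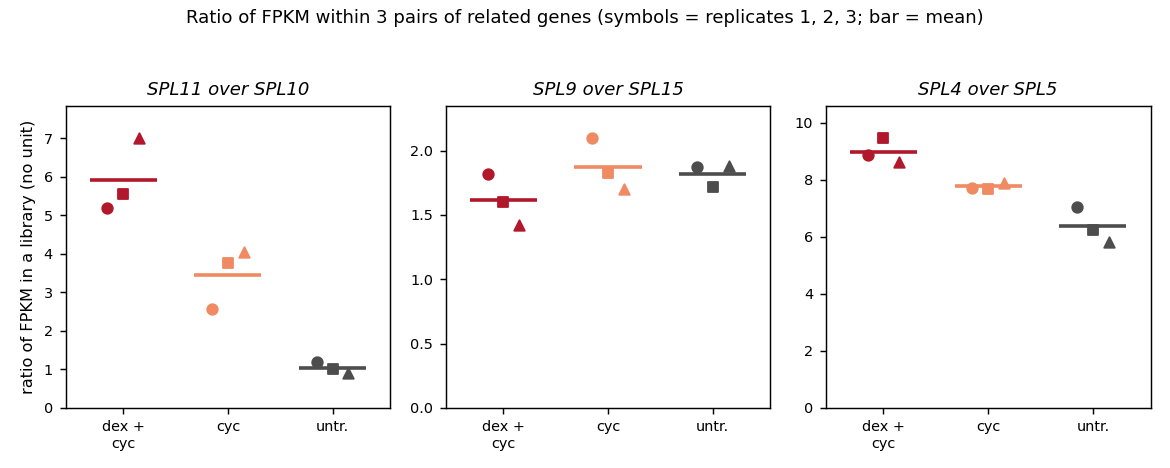
Ratio of FPKM within each library for SPL11 over SPL10, SPL9 over SPL15 and SPL4 over SPL5, on linear axes from 0, with dexamethasone + cycloheximide, cycloheximide and untreated along x. Points are libraries and bars are means; the SPL11 to SPL10 ratio lies between 5.18 and 7.01, between 2.58 and 4.05, and between 0.903 and 1.19 in these groups, without overlap.

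The small genes SPL3, SPL4 and SPL5, which act with the FT and FD proteins in floral induction, did not differ between the treated groups beyond their spread. SPL4 (AT1G53160, chromosome 1, 19806222 to 19807693) gave a log2 fold change of 0.11 ± 0.19 (adjusted p = 0.774), and this value turned to -0.03 after quantile normalization. SPL3 (AT2G33810, chromosome 2, 14304920 to 14306164) had 32.3, 32.4 and 24.6 FPKM with both compounds, against 35.4, 30.5 and 25.6 FPKM with cycloheximide, a log2 fold change of -0.04 ± 0.15 (adjusted p = 0.917). SPL5 (AT3G15270, chromosome 3, 5140365 to 5141348) had 49.0, 32.8 and 38.8 FPKM with both compounds, against 49.9, 39.4 and 39.2 FPKM with cycloheximide, a log2 fold change of -0.10 ± 0.16 (adjusted p = 0.749). The groups of all 3 genes overlapped. The ratio of SPL4 to SPL5 did not overlap, at 8.86, 9.46 and 8.63 with both compounds, against 7.72, 7.68 and 7.89 with cycloheximide (exact permutation test, two-sided, p = 0.1, adjusted p = 0.15).

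SPL6 (AT1G69170, chromosome 1, 26005068 to 26007263), known for a role in immune responses, had 21.9, 22.0 and 22.4 FPKM with both compounds, against 21.4, 23.5 and 24.9 FPKM with cycloheximide. The difference was -0.07 ± 0.07 (adjusted p = 0.618). SPL13A (AT5G50570, chromosome 5, 20582083 to 20584559), which acts in the change to adult leaves, had 2.64, 2.58 and 0.131 FPKM with both compounds, against 1.06, 2.54 and 2.65 FPKM with cycloheximide. The third library with both compounds stood apart from the other two. The log2 fold change was -0.28 ± 0.45 (adjusted p = 0.75), and it turned to 0.28 without that library.

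**Figure D3:**
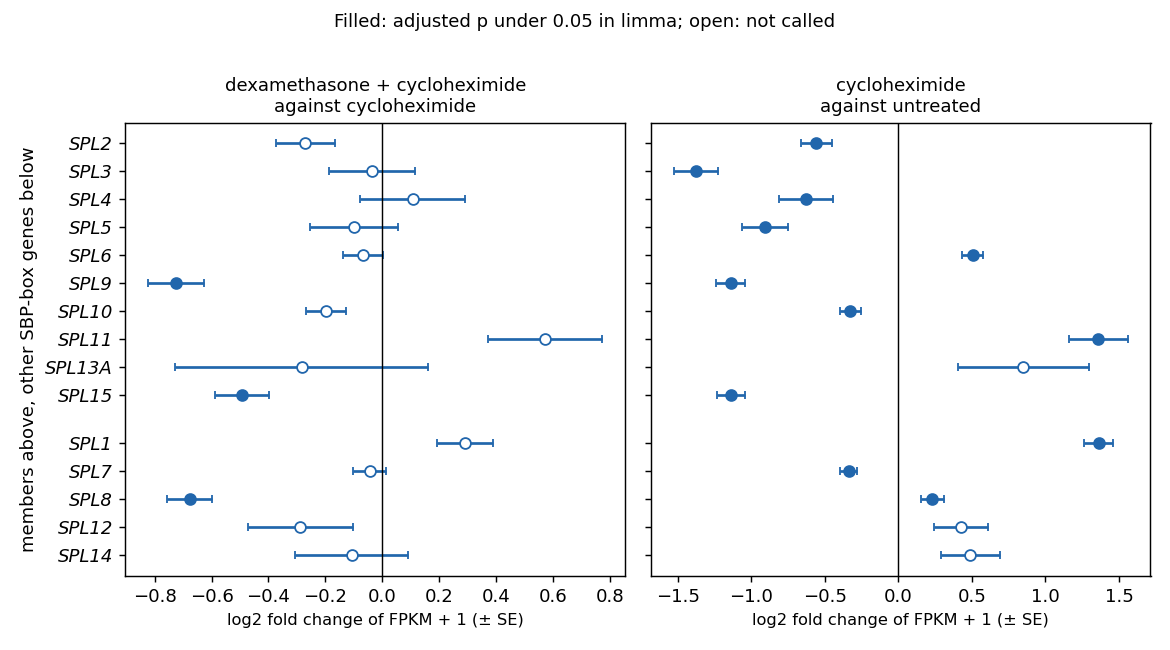
log2 fold change of FPKM + 1 with its SE for the 10 members and, below them, the 5 other SBP-box genes tested, for dexamethasone + cycloheximide against cycloheximide at left and cycloheximide against untreated at right. Filled points passed adjusted p under 0.05 in limma; at left these are SPL9, SPL15 and SPL8, all lower, and at right 9 of the 10 members with SPL1, SPL7 and SPL8.

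Of the 7 SBP-box genes outside the set, 5 were tested, and SPL8 fell with dexamethasone. SPL8 (AT1G02065), which acts in anther and pollen-sac development, had 90.4, 92.3 and 83.3 FPKM with both compounds, against 146.7, 139.4 and 140.8 FPKM with cycloheximide and 125.5, 113.5 and 125.0 FPKM untreated. The log2 fold change was -0.68 ± 0.08 (adjusted p = 0.00952), in a gene without a close miR156 match; whether it differs from that of SPL9 was not tested. The call held whichever single library was left out and was lost in the fit of the 6 libraries alone (adjusted p = 0.0599). SPL1, SPL7, SPL12 and SPL14 did not pass, with log2 fold changes of 0.29, -0.04, -0.29 and -0.11. SPL13B, at 0, was not tested, and AT1G76580 was not tested because 1 library lacked the status OK.

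Markers of cell types were also read in these libraries, and TFL1 alone passed in limma between the treated groups. The summed FPKM of the 8 floral organ markers was 27.5, 29.5 and 23.3 with both compounds, against 82.9, 32.9 and 46.0 with cycloheximide and 69.9, 74.7 and 67.1 untreated. In cycloheximide replicate 1, AP3 (13.0 FPKM), AG (2.66 FPKM) and SEP3 (21.7 FPKM), which specify organs of the flower, were at their highest of all 9 libraries. So was AMS (1.52 FPKM), whereas PI, SHP1, SHP2 and CRC were at their highest in an untreated library. Of the 6 tested, 0 passed in limma between the treated groups, 4 were lower at an unadjusted p under 0.05, and AP3 had -1.57 ± 0.59 (adjusted p = 0.163). With cycloheximide against untreated 2 of the 6 fell, PI (-0.50 ± 0.16, adjusted p = 0.0308) and SHP1 (-0.58 ± 0.21, adjusted p = 0.0412). These calls were lost in 4 and 6 of the 9 fits without 1 library. The list of 5 inflorescence meristem markers holds LFY, named above as a floral identity gene, so its sum does not stand for 1 tissue. These 5 genes were present in all libraries and summed to 195.3, 164.0 and 151.0 FPKM with both compounds, against 333.5, 279.1 and 248.9 FPKM with cycloheximide and 350.2, 348.1 and 319.9 FPKM untreated. Most of the difference in this sum between the treated groups lay in TFL1, with means of 38.6 FPKM with both compounds and 142.1 FPKM with cycloheximide, the only one of the 5 that passed there. STM and CLV3 had ratios of means of 0.743 and 0.533, and WUS and LFY had 1.38 and 1.32. With cycloheximide against untreated WUS and LFY rose and STM fell. Of the 3 root markers PLT1 was listed at 0 in every library, and WOX5 and SHR were present in all 9, with 8.81 to 13.0 and 22.7 to 26.5 FPKM with both compounds, 4.65 to 10.8 and 27.9 to 32.1 FPKM with cycloheximide, and 3.50 to 12.6 and 14.8 to 18.1 FPKM untreated. Neither passed between the treated groups, and SHR rose with cycloheximide against untreated (0.83 ± 0.10, adjusted p = 0.000185). The part of any shift in cell types in the falls of SPL9, SPL15 and SPL8 was not tested. Without cycloheximide replicate 1, SPL9 and SPL15 had -0.69 (adjusted p = 0.0552 in limma) and -0.53 (adjusted p = 0.084). Both calls were lost, and that of SPL8 held. Over the 9 fits without 1 library the SPL9 call was lost in 3, the SPL15 call in 8 and the SPL8 call in 0, so such losses were not particular to that library.

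The comparison of cycloheximide with untreated inflorescences gave far more differences among the members, as among all loci. Of the 10 members 7 fell and 2 rose, where 28.2% of all loci tested fell and 26.5% rose. In 7 members all cycloheximide libraries lay below all untreated ones, and in 3 all lay above, against 33.6% and 30.5% of all loci. The members' median log2 fold change was -0.59, and that of all loci -0.05. Centring the library medians or quantile normalization moved the median of all loci to -0.17 or -0.22, and the share of calls that were higher to 36.6% or 32.3%, against 48.5% as fitted. The same 7 falls and 2 rises were counted among the members under both scalings.

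SPL3 had the largest fall. It had 35.4, 30.5 and 25.6 FPKM with cycloheximide, against 89.7, 80.2 and 71.7 FPKM untreated, a log2 fold change of -1.38 ± 0.15 (adjusted p = 0.000148). SPL5 had 49.9, 39.4 and 39.2 FPKM with cycloheximide, against 87.7, 80.2 and 74.2 FPKM untreated, with -0.90 ± 0.16 (adjusted p = 0.00161). SPL4, given above, fell by less, with -0.63 ± 0.19 (adjusted p = 0.0199). Its call was lost without cycloheximide replicate 2 or 3 and without untreated replicate 1 or 2. All 3 of these small genes were thus lower with cycloheximide, with no overlap between the groups.

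SPL9 and SPL15 both fell, with log2 fold changes of -1.14 ± 0.10 (adjusted p = 3.79e-05) and -1.14 ± 0.10 (adjusted p = 3.17e-05). SPL2 had 8.40, 9.77 and 10.9 FPKM with cycloheximide, against 16.1, 13.8 and 14.3 FPKM untreated, with -0.56 ± 0.11 (adjusted p = 0.00243). SPL10 had 21.7, 22.8 and 21.0 FPKM with cycloheximide, against 28.2, 28.0 and 26.7 FPKM untreated, with -0.33 ± 0.07 (adjusted p = 0.00472). This was the smallest of the 7 falls.

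SPL11 and SPL6 rose. SPL11 had 56.0, 85.5 and 85.2 FPKM with cycloheximide, against 33.5, 28.1 and 24.1 FPKM untreated, a log2 fold change of 1.36 ± 0.20 (adjusted p = 0.000714). SPL6 had 21.4, 23.5 and 24.9 FPKM with cycloheximide, against 15.7, 17.1 and 15.5 FPKM untreated, with 0.50 ± 0.07 (adjusted p = 0.000574). SPL13A had 1.06, 2.54 and 2.65 FPKM with cycloheximide, against 0.770, 0.549 and 0.651 FPKM untreated. It did not overlap but did not pass (0.85 ± 0.45, adjusted p = 0.139). SPL13A passed without dexamethasone + cycloheximide replicate 3 and in the 6 libraries alone (adjusted p = 0.0271). Its untreated libraries were all below 1 FPKM, so it met the filter on the mean only through the treated libraries. Its rise, and its place among the 3 members with all cycloheximide libraries above, therefore cannot be read apart from that filter. Members with the identical miR156 stretch thus included 4 that fell (SPL2, SPL9, SPL10 and SPL15), 2 that rose (SPL6 and SPL11) and SPL13A.

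Among the other SBP-box genes SPL1, which acts in heat tolerance of inflorescences, had 138.9, 169.9 and 174.9 FPKM with cycloheximide, against 61.9, 61.3 and 62.0 FPKM untreated. It rose by 1.36 ± 0.10 on the log2 scale (adjusted p = 1.41e-05). SPL7, a regulator of copper homeostasis, fell with -0.34 ± 0.06 (adjusted p = 0.00154). SPL8 was higher with 0.23 ± 0.08 (adjusted p = 0.0353), a call lost after centring (0.25) or quantile normalization (0.206) and in 6 of the 9 fits without 1 library. SPL12 and SPL14 did not pass. The 2 loci of the leaf mesophyll markers, that of RBCS1A and the one shared by LHCB1.1 and CAB3, summed to 1894, 1886 and 1999 FPKM with cycloheximide, against 3322, 3301 and 3053 FPKM untreated. Both fell, and their part in the falls of the members was not tested.

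Set against untreated inflorescences, dexamethasone + cycloheximide gave 7 lower and 2 higher members, with 33.1% of all loci lower and 30.8% higher; this comparison shares its libraries with those above. The log2 fold changes were -1.86 ± 0.10 for SPL9 (adjusted p = 1.74e-06), -1.63 ± 0.10 for SPL15 (adjusted p = 2.84e-06) and 1.93 ± 0.20 for SPL11 (adjusted p = 6.72e-05). The mean FPKM with both compounds was 0.254 times that of untreated inflorescences for SPL9, 0.288 times for SPL15, and 3.92 times for SPL11. The sum of the 10 members was 673.5, 554.4 and 590.4 FPKM with both compounds, against 601.8, 541.1 and 539.5 FPKM with cycloheximide and 940.7, 801.5 and 712.8 FPKM untreated. The treated groups overlapped in this sum, and both lay below the untreated group.

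Genes on the opposite strand bear on how far some values can be read. The labels name a library kit without strand information, and the series' design text speaks of a strand-specific protocol, so reads of a member and of its opposite partner may not be separated. SPL3 lies over AT2G33815, a long non-coding RNA of the other strand, for 1046 bases. The locus of that strand, which also holds AT2G33820, had 42.7, 39.9 and 44.9 FPKM with both compounds, against 58.9, 58.6 and 51.5 FPKM with cycloheximide and 121.2, 121.6 and 113.8 FPKM untreated. It fell with cycloheximide as SPL3 did (-1.07 ± 0.08, adjusted p = 1.86e-05), and also with dexamethasone (-0.40 ± 0.08, adjusted p = 0.0414), where SPL3 did not pass. The call with dexamethasone remained in 1 of 9 fits without 1 library, that without cycloheximide replicate 3.

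SPL5 lies wholly within AT3G15260, whose locus was higher in both comparisons, by 0.34 ± 0.07 with dexamethasone (adjusted p = 0.0469) and by 0.68 ± 0.07 with cycloheximide (adjusted p = 0.000117). The dexamethasone call was lost whichever library was left out (adjusted p = 0.0584 to 0.118). The locus had 61.6, 54.8 and 54.1 FPKM with both compounds, against 44.8, 44.9 and 44.4 FPKM with cycloheximide and 27.3, 29.0 and 26.2 FPKM untreated. The SPL5 locus covered 50.2% of the annotated gene. The gene SPL15 is overlapped by the gene AT3G57910 for 1793 bases. The locus of AT3G57910 covered 44.2% of that gene and ended at 21444312, before the SPL15 locus began at 21444321. Its values therefore do not describe opposite-strand reads within the SPL15 locus. This AT3G57910 locus had 14.6, 11.3 and 10.1 FPKM with both compounds, against 11.3, 9.45 and 11.2 FPKM with cycloheximide and 12.2, 11.5 and 9.76 FPKM untreated. Its groups overlapped, and it passed neither comparison (adjusted p = 0.583 for dexamethasone and 0.75 for cycloheximide).

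**Figure D4:**
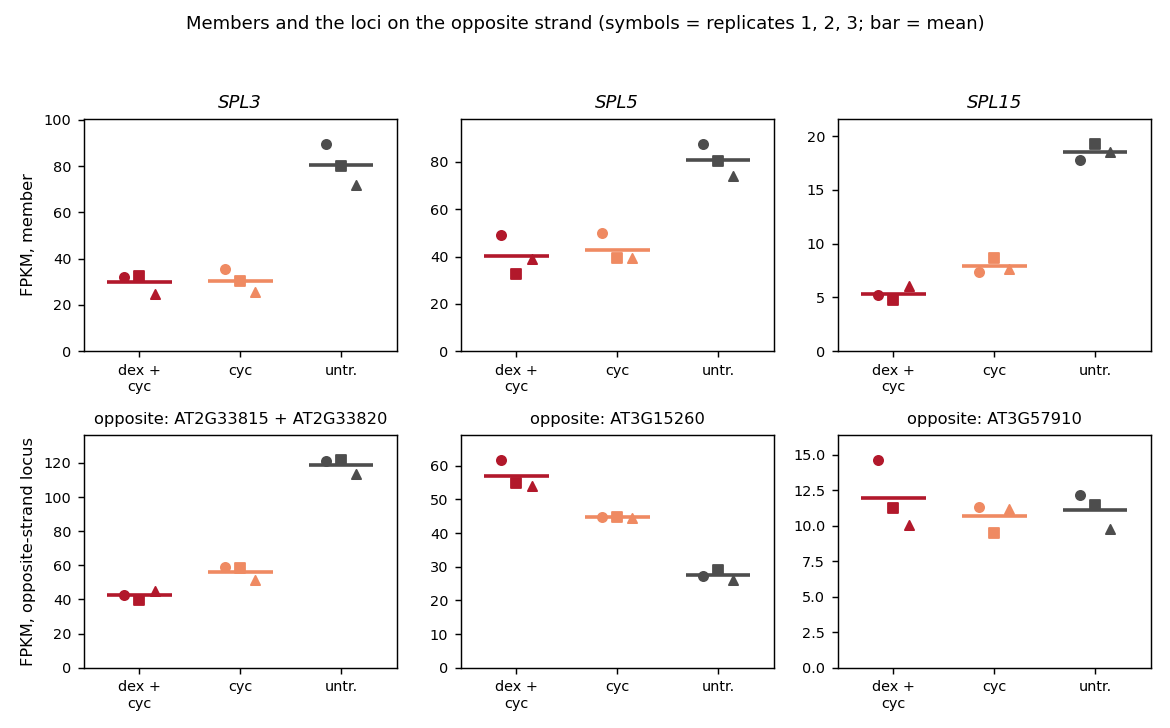
FPKM of SPL3, SPL5 and SPL15 (above) and of the locus taken for the opposite-strand gene of each (below), on linear axes from 0, with dexamethasone + cycloheximide, cycloheximide and untreated along x. The locus taken for SPL15 ends before the SPL15 locus begins. Points are libraries and bars are means; the partner of SPL3 has 39.9 to 58.9 FPKM in treated and 113.8 to 121.6 FPKM in untreated libraries, that of SPL5 has 44.4 to 61.6 FPKM in treated and 26.2 to 29.0 FPKM in untreated libraries, and that of SPL15 overlaps in all groups.

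Genes that act around the SPL family were read from lists of known components. Their counts stand against 1.78% of all loci tested that fell and 1.91% that rose with dexamethasone, and 28.2% that fell and 26.5% that rose with cycloheximide. Many of the dexamethasone calls lay near the threshold. FD, FDP and TFL1 held whichever single library was left out, MIR157A in 4 of these 9 fits, RGL2 and AP2 in 3, VAL2, AGL42 and TRY in 1, that without cycloheximide replicate 3 for VAL2 and AGL42 and without untreated replicate 3 for TRY, and RGL3 in 0. Of 12 MIR156 and MIR157 genes 3 had a testable locus, and 8 were listed at 0 in all 9 libraries. The libraries hold long RNA, so these are precursor transcripts. The loci at 0, apart from that of MIR156F (2352 bp), were 80 to 165 bp long. FPKM of loci of 101 bp moved in large steps, as given below, so a 0 at such a short locus does not show that the precursor was absent. The MIR157A locus fell with dexamethasone, with 7.78, 6.57 and 4.54 FPKM with both compounds, against 19.5, 12.2 and 16.4 FPKM with cycloheximide and 14.6, 18.5 and 14.5 FPKM untreated. Its log2 fold change was -1.23 ± 0.21 (adjusted p = 0.0301). The MIR157D locus of 172 bp rose with cycloheximide, with 16.4, 7.61 and 13.4 FPKM, against 4.63, 2.43 and 0 FPKM untreated (2.27 ± 0.67, adjusted p = 0.0201), a call lost in 2 of the 9 fits without 1 library. Of 10 genes of microRNA production and action, 0 passed in limma with dexamethasone and 1 had an unadjusted p under 0.05. With cycloheximide HYL1 and SQN rose, and CBP20 and DCL1, the nuclease that cuts microRNA precursors, fell, the last at a locus that holds another gene too. Leaving out 1 library ended the call of CBP20 in 6 of 9 fits and of DCL1 in 3.

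Of 11 tested genes that act upstream of SPL genes, 3 fell and 1 rose with dexamethasone, where 1.78% of all loci fell and 1.91% rose. FD, the bZIP partner of the florigen FT, had 121.7, 134.6 and 124.3 FPKM with both compounds, against 242.5, 256.4 and 211.8 FPKM with cycloheximide (-0.89 ± 0.10, adjusted p = 0.00694). Its relative FDP (-1.04 ± 0.11) and TFL1 (-1.85 ± 0.15), the antagonist of FT, also fell. VAL2, a repressor of MIR156 genes, rose with 0.36 ± 0.07 (adjusted p = 0.04). With cycloheximide the same list had 2 falls, SOC1 and AGL24, and 2 rises, AGL15, lost in 4 of the 9 fits, and VAL2, smaller shares than the 28.2% and 26.5% of all loci.

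Of 11 tested genes downstream of SPL proteins, 1 rose and 1 fell with dexamethasone, where 1.91% of all loci rose and 1.78% fell. AGL42, a MADS-box target of SPL9, had 255.1, 231.4 and 205.0 FPKM with both compounds, against 425.3, 343.2 and 341.7 FPKM with cycloheximide (-0.68 ± 0.13, adjusted p = 0.0388). TRY, a repressor of trichomes that SPL9 activates, had 13.3, 11.4 and 15.3 FPKM with both compounds, against 6.61, 7.96 and 7.52 FPKM with cycloheximide (0.77 ± 0.16, adjusted p = 0.044; 0.0578 with the replicate block on all 9 libraries). These 2 known targets of SPL9 therefore moved in opposite directions. With cycloheximide, where 28.2% of all loci fell and 26.5% rose, the 11 genes had 5 falls (SOC1, AGL42, TCL1, DFR and MIR172B) and 2 rises (LFY and CYP78A5); the calls of AGL42 and MIR172B were each lost in 5 of the 9 fits without 1 library. TCL1, another trichome repressor activated by SPL9, fell with -1.59 ± 0.19 (adjusted p = 0.0002). DFR, a pigment gene that SPL9 represses, fell with -2.06 ± 0.29 (adjusted p = 0.000588).

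Proteins that bind SPL proteins include the DELLA repressors of gibberellin signalling. Of 9 tested partners, RGL2 (0.61 ± 0.11, adjusted p = 0.0323) and RGL3 (1.04 ± 0.22, adjusted p = 0.047; 0.0506 with that block) rose with dexamethasone, and 0 fell, also at an unadjusted p under 0.05. Of all loci 1.91% rose and 1.78% fell, and 9.85% were lower at that unadjusted p. RGL3 had 93.4, 131.7 and 131.8 FPKM with both compounds, against 43.0, 74.0 and 56.7 FPKM with cycloheximide and 15.1, 12.0 and 10.5 FPKM untreated. It rose in both comparisons (2.10 ± 0.22 with cycloheximide, adjusted p = 0.00012). With cycloheximide the partners had 2 rises, RGL3 and RGL1 (0.86 ± 0.13, adjusted p = 0.000665), where 26.5% of all loci rose. They had 3 falls, TOE1, TOE2 and PNF (-0.46 ± 0.12, adjusted p = 0.0107), where 28.2% of all loci fell. Of 6 targets of miR172, the microRNA downstream of SPL9, 1 rose with dexamethasone, AP2 with 0.55 ± 0.10 (adjusted p = 0.0362), where 1.91% of all loci rose. With cycloheximide 5 of them fell, AP2, TOE1, TOE2, SMZ and SNZ, where 28.2% of all loci fell.

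Over the 9 libraries the 3 symbol-bearing single-gene loci most like SPL9, among 7685, were FBW2 (Pearson r = 0.995 of log2(FPKM + 1)), PLA2-ALPHA (0.993) and KCS17 (0.991). For SPL15 they were PSB29 (0.999), TLP18.3 (0.996) and ENH1 (0.995). SPL9 and SPL15 correlated with each other at 0.985, and 30 and 28 of the 7685 loci were closer to SPL9 and to SPL15. These values describe steps between groups of libraries that all points share. In the 300 bases upstream of the gene start, the members SPL4, SPL6, SPL9, SPL10, SPL11 and SPL15 held the letters GTAC, the core of the SBP site and its own reverse complement, as did 39.7% of 27443 promoters. A CArG box, the motif of MADS-domain proteins, was found on either strand in none of the 10 and in 2.92% of all promoters.

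Precision was set by the spread of 3 libraries a group. The sources used here give no total read number. Loci of 101 bp held FPKM that were nearly all (96.0% or more) integer multiples of 1 value per library, within 0.02. This step ran from 761.5 FPKM in untreated replicate 2 to 2091 FPKM in dexamethasone + cycloheximide replicate 2. In untreated replicates 2 and 3 the lowest value above 0 was taken as 2 steps. Steps of this size are larger than locus length and library total alone would give, so they are not taken as read depth. In dexamethasone + cycloheximide replicate 3, in which SPL13A was near 0, the step was 1959 FPKM. In replicate 2 of that group, with the larger step of 2091 FPKM, SPL13A had 2.58 FPKM. The labels do not say whether replicates came from separate plants grown apart, so the p-values measure the spread between these samples.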

How the data were processed

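RNA libraries of inflorescences were made with a TruSeq RNA V2 kit and sequenced on an Illumina HiSeq, per the labels' protocols. Per the submitters' processing notes, reads went through TopHat, Cufflinks and Cuffdiff on TAIR10; no version or scaling method is given in the sources used here. Values deposited by the authors were FPKM per locus with a status. Of 33871 loci, 77 were left out for a status other than OK in some library, and loci with a mean under 1 FPKM over the 9 libraries were not tested. FPKM are not counts, so no count model was used. limma 3.58.1 in R 4.3.3 was fitted to log2(FPKM + 1) of all 9 libraries, with an intensity trend, 6 residual degrees of freedom and Benjamini-Hochberg adjustment over 19569 loci. Fold changes on this scale understate changes of low loci. The fit was tested on simulated data. Sequences were read with Biopython under Python 3.11.15, tables were built with pandas 2.3.3, and figures with matplotlib 3.10.9. Locus coordinates are the deposited ones, with 1 as the first base; sequences and gene models came from the RefSeq copy of the same chromosome sequences, using for each gene the transcript with the longest coding sequence.

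Samples were grouped by their labels. Same-numbered dexamethasone + cycloheximide and cycloheximide libraries deviated together from their group means (r = 0.353, 0.131 and 0.213). Between different numbers r ran from -0.281 to 0.113, the highest close to the lowest of the same-numbered values. The data were taken to show pairing by number, and blocked fits were run as alternatives. Against untreated libraries the numbers did not pair (r from -0.115 to 0.108). The block raised the loci called with dexamethasone to 1102, against 723 without it. Other alternatives were the pseudocount, the filter, scaling, short loci, the libraries in the fit and each library left out. The blocked fit of 6 libraries and the test of ratios within pairs were added after the data were seen. The members, gene lists and ratios were chosen with earlier results of these data known. All 10 members and the 7 other SBP-box genes were named whatever their result, and from each list the members called with dexamethasone or cycloheximide; likeness was taken for members called with dexamethasone.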

Additional observations from a re-analysis of the deposited data

How the results depend on the processing

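With dexamethasone + cycloheximide against cycloheximide, 723 loci and 2 members were called. The loci called were 298 without the filter on low values, 1102 with the replicate block, 41 in the 6 libraries alone, 1544 with the block in those 6, and 69 to 1248 with 1 library left out. The members called were 1 without the filter, 0 in the 6 libraries alone (4 at an unadjusted p under 0.05 in limma) and 0 to 2 with 1 library left out. The share of calls that were higher was 51.7%, and 41.3% with a pseudocount of 0.1. SPL9 and SPL15 stayed below 0 in every fit. Under the block on all 9 libraries no call among the members changed (SPL9 adjusted p = 0.0283, SPL15 0.0459). That block also ties in the untreated libraries, which did not pair by number. With the block in the 6 treated libraries alone, SPL15 lost its call and SPL11 gained one, as given above. Of the genes around the family called with dexamethasone, TFL1 remained called in the 6 libraries alone and the other 9 did not.

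Values that changed sign, none of them called, were SPL4 after quantile normalization (-0.0302) and, with 1 library left out, SPL3 (-0.152 to 0.0923), SPL4 (-0.0360 to 0.217), SPL5 (-0.249 to 0.0345), SPL13A (-0.568 to 0.275) and SPL14 (-0.271 to 0.0875), all with dexamethasone, and SPL12 in dexamethasone + cycloheximide against untreated after centring (-0.000707) or quantile normalization (-0.00671). With cycloheximide against untreated, 8 to 10 members were called over all alternatives, and with both compounds against untreated 8 to 9; there the higher share of calls was 48.3%, and 37.5% after centring or 33.8% after quantile normalization. The cause of these shifts was not tested. The order of levels was the same in every group after scaling by library medians, which cannot change the order within a library. SPL13A had under 3 FPKM in every library; the part of depth in its spread was not tested.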

Other observations

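SPL4 and SPL5 were highest in replicate 1 of every group, at 434.2, 385.0 and 618.0 FPKM for SPL4 in dexamethasone + cycloheximide, cycloheximide and untreated replicate 1. SPL11 was lowest in replicate 1 of both treated groups, at 92.4 FPKM with both compounds and 56.0 FPKM with cycloheximide, and highest in replicate 1 of the untreated group, at 33.5 FPKM. The difference between the treated groups within each replicate number was above 0 for both SPL4 and SPL11 at all 3 numbers. These patterns were noticed after the values were seen and were not tested.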
